A study of Mus musculus with 11 samples.

Results

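Lysophosphatidic acid (LPA) and sphingosine 1-phosphate (S1P) signalling in liver mesenchymal cells was described through 8 genes, picked by symbol from the 27998 genes of the droplet (10x Chromium) tables. The genes were the LPA-making enzyme gene Enpp2, the LPA receptor genes Lpar1, Lpar3, Lpar4 and Lpar6, and the S1P receptor genes S1pr1, S1pr2 and S1pr3. All 8 were found by symbol in the 10x tables and among the 23997 symbols of the plate-based Smart-seq2 tables. The rule took genes by symbol and set no threshold on a value, and the list was drawn up with earlier results of these data known.

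LPA and S1P are lipids that signal between cells. Autotaxin, the secreted enzyme that Enpp2 encodes, releases LPA from lysophosphatidylcholine outside the cell, while sphingosine kinases make S1P inside the cell and transporters export it. Each lipid acts on its own receptors in the cell membrane, which couple to several G proteins, among them those that switch on small GTPases and the contractile cytoskeleton. In liver, these lipids are known for their actions on hepatic stellate cells (HSC), the vitamin A-storing pericytes of the sinusoid that become collagen-producing myofibroblasts after injury.

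The study sorted single mesenchymal cells from uninjured and fibrotic mouse livers. All mice carried Pdgfrb-BAC-eGFP, a transgene in which regulatory sequence of the mesenchymal gene Pdgfrb drives green fluorescent protein, on C57BL/6, and were males of 10 to 16 weeks. GFP+ cells without the leucocyte marker CD45 and the endothelial marker CD102 were collected, so that only cells with an active reporter were sampled. Each of the 5 10x libraries pooled 3 mice, and each condition of a digestion was a single library. Cells digested with protocol 1, which keeps portal fibroblasts (FB) and vascular smooth muscle cells (VSMC), came from uninjured mice and from mice given carbon tetrachloride (CCl4) for 6 weeks and killed 48 h after the last dose. Cells digested with protocol 2, which enriches HSC on a density gradient, came from uninjured mice, from mice 72 h after a single dose of CCl4, and from mice given CCl4 for 6 weeks. Smart-seq2 wells on 6 plates came from uninjured mice, mice with the bile duct tied (BDL) for 14 days, and mice given CCl4 for 6 weeks.

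After filtering, the 10x libraries held 5454 to 7310 cells each, 25962957 to 86661230 unique molecular identifiers (UMIs) in all and a median of 4299 to 11343.5 UMIs per cell, with the 72 h library the deepest. Pairs of libraries shared 33 to 74 cell barcodes, at most 1.31% of the smaller library. Clusters were named from markers as FB-like (4068 uninjured cells and 2620 after 6 weeks of CCl4), VSMC-like (1667 and 3003 cells) and HSC-like (6850 uninjured cells, 7121 at 72 h and 4463 at 6 weeks). A cluster of 173 cells at 72 h, led by Ltbp2, Ildr2 and Wisp2, and another of 970 cells at 6 weeks, led by Alcam, Ltbp2 and Fam180a, stayed unnamed. The 5 HSC markers summed to 24589 UMIs per 1000000 UMIs of the class (CPM) in uninjured HSC-like cells, 4406 CPM at 72 h and 13270 CPM at 6 weeks, whereas the 6 FB markers went from 30.5 CPM to 246 and 322 CPM and the 5 VSMC markers from 594 to 1885 and 1115 CPM. All 5 HSC markers and all 6 FB markers were detected in each of the 3 libraries. Of the FB sums, however, Gpx3 alone made up 17.3 CPM in uninjured cells, 162 CPM at 72 h and 230 CPM at 6 weeks. The FB markers that reached 10 CPM numbered 1, 4 and 2 in turn. The part of these shifts in the gene values below was not tested. Of 2292 Smart-seq2 wells, 2065 were kept, with a median of 445490 reads. Clusters of 114 wells, led by Cyp2e1, Wif1 and Gfra2, and of 27 wells, led by the mesothelial genes Msln and Upk3b, stayed unnamed and out of the tests. Wells of a mouse on a plate were summed to a portion, which gave 6 uninjured, 5 BDL and 4 CCl4 portions for FB-like and for VSMC-like wells and 2 uninjured portions for HSC-like wells. The HSC-like portions were on plate 6, the only plate whose label names the HSC isolation as well as the portal fibroblast one. Levels of HSC-like wells are thus set beside the other classes across isolations. Levels there are reads per 1000000 reads of the portion's sum (RPM).

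Lpar1 and S1pr3 ran in opposite directions among the HSC-like cells described below. The 250 bases upstream of a RefSeq start site of each are therefore printed, 5′ to 3′ on the gene's strand, on GRCm38.p6. Capitals mark the GC box, GGGCGG, which was searched on both strands.

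Lpar1, chr4:58553492-58553741, minus strand: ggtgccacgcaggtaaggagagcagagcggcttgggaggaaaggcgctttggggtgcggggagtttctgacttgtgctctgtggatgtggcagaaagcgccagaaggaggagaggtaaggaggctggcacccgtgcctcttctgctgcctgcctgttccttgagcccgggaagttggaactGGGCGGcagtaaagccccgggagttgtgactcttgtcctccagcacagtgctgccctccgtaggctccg

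S1pr3, chr13:51408368-51408617, plus strand: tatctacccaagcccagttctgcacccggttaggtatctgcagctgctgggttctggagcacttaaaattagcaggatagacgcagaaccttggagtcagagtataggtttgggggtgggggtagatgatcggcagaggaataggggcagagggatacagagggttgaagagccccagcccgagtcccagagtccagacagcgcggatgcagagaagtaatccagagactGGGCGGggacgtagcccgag

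Each of the stretches held 1 GC box, a motif present in 32.7% of 32851 RefSeq promoters of that length. Neither held a TATA box (TATAAA, in 12.4% of promoters) or a TEAD site (CATTCC, in 12.6%), searched the same way. The first stretch had a GC content of 62.0% and belongs to 1 of 3 annotated starts of Lpar1, and the second had a GC content of 56.4%. A match is a description of the letters and not a site in use. The Lpar1 gene spans chr4:58435255-58553898 on the minus strand and S1pr3 chr13:51408639-51422797 on the plus strand. Gene spans are from another annotation, GENCODE, in which Lpar1 begins further upstream. The printed Lpar1 stretch thus lies inside the span of the gene, while that of S1pr3 lies outside. Enpp2 lies at chr15:54838901-54952892 on the minus strand, Lpar4 at chrX:106920625-106933900 on the plus strand and S1pr2 at chr9:20962361-20976781 on the minus strand. Lpar6, at chr14:73237895-73243294 on the plus strand, lies inside Rb1 on the opposite strand and touches an Rb1 exon, and the Smart-seq2 reads, which carry no strand, cannot be told apart there. The same holds where Enpp2 overlaps Gm26684 and S1pr3 overlaps Gm32834.

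**Figure D1:**
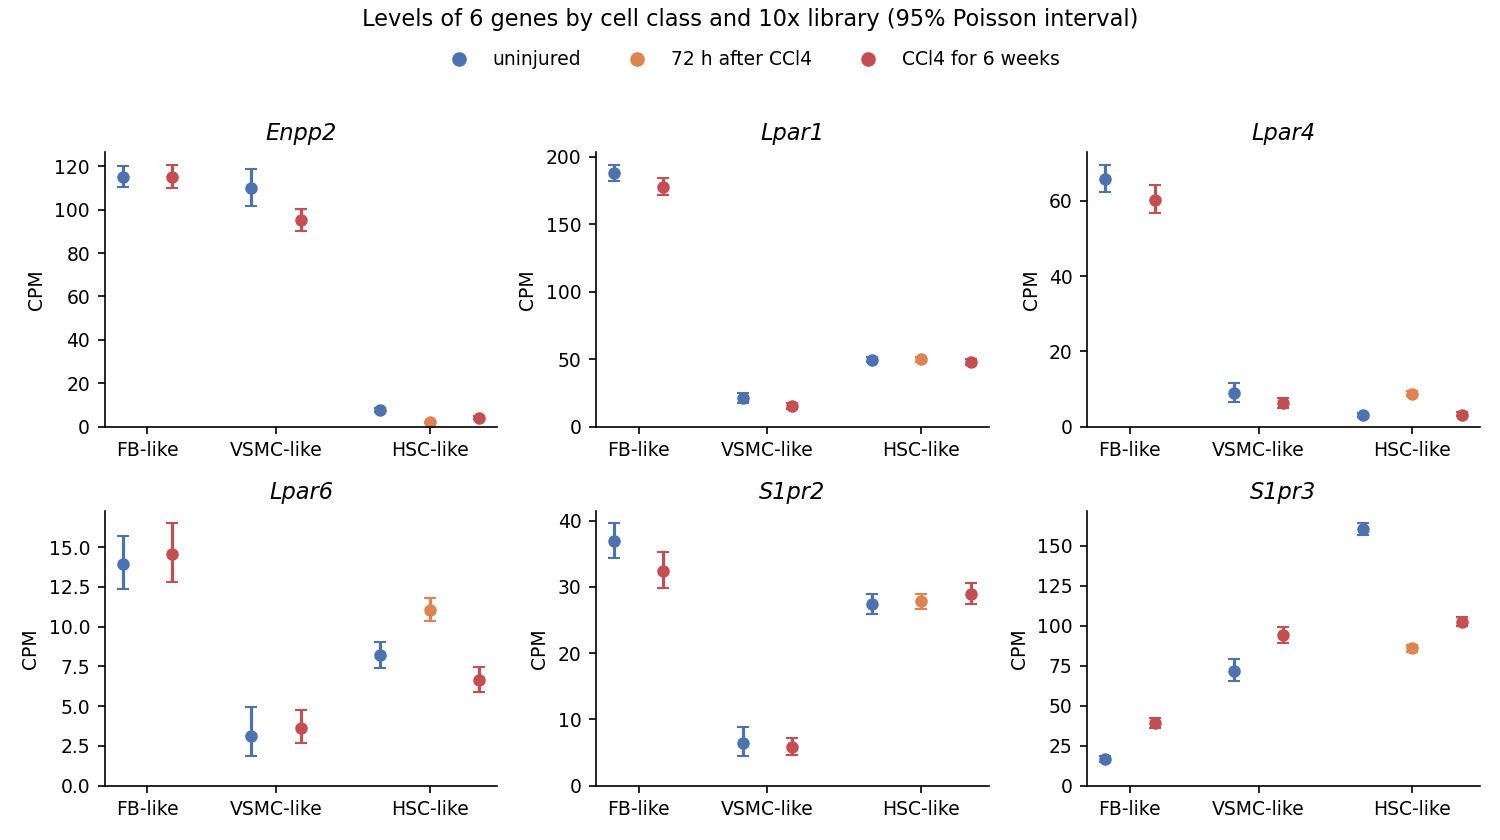
Level of 6 of the genes in each class of cells in the 5 10x libraries, in CPM summed over the cells of a class, with exact Poisson 95% intervals for counting error; each point is 1 library. Lpar1 was highest in FB-like cells, Enpp2 was 95.1 CPM or more in FB-like and VSMC-like cells, and S1pr3 was highest in uninjured HSC-like cells.

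Enpp2 was an FB and VSMC transcript and hardly an HSC transcript. In 10x it stood at 115 CPM in uninjured FB-like cells (95% exact Poisson interval 111 to 120) and 115 CPM after 6 weeks of CCl4 (110 to 121). VSMC-like cells held 110 CPM (102 to 119) in uninjured mice and 95.1 CPM (90.1 to 100) after CCl4. HSC-like cells held 7.52 CPM (6.75 to 8.36) in uninjured mice, 1.93 CPM (1.65 to 2.25) at 72 h and 4.05 CPM (3.47 to 4.69) at 6 weeks. The ratio to the uninjured library was thus 0.257 (0.212 to 0.310) at 72 h and 0.538 (0.446 to 0.647) at 6 weeks, from levels below the 10 CPM that a gene had to reach to be counted as changed. These intervals cover counting error only, and with 1 library per condition the differences have no replicate check.

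In Smart-seq2, Enpp2 in FB-like wells split by plate as well as by injury, and no plate held both injuries. The 6 uninjured portions ran from 169 RPM through a median of 318 to 726 RPM. The 5 BDL portions held 0, 58.3, 88.0, 210 and 304 RPM, and the 4 CCl4 portions held 487, 778, 1110 and 2028 RPM. Every CCl4 portion lay above every BDL portion, and each injury overlapped the uninjured portions. The uninjured portions split the same way, with 726 and 691 RPM on plates 3 and 5, which held the CCl4 mice, against 212, 254 and 382 RPM on plates 1, 2 and 4, which held the BDL mice. Between BDL and CCl4, injury and plate therefore cannot be told apart. Within plates, CCl4 portions held 778 and 1110 RPM against 726 RPM uninjured on plate 3, and 2028 and 487 RPM against 691 RPM on plate 5, so they lay on both sides. BDL portions held 304 and 88.0 RPM against 212 RPM on plate 1, 58.3 and 0 RPM against 254 RPM on plate 2, and 210 RPM against 382 RPM on plate 4, lower in 4 of 5. The mean was 406 ± 245 RPM (SD, n = 6) in uninjured, 132 ± 123 RPM (n = 5) in BDL and 1101 ± 668 RPM (n = 4) in CCl4 wells. Neither change passed edgeR's quasi-likelihood test with Benjamini-Hochberg adjustment, with a log2 difference of -1.69 ± 0.81 (SE) and an adjusted p of 0.478 for BDL and of 1.40 ± 0.82 and an adjusted p of 0.723 for CCl4. With the plate as a block the differences were -1.58 ± 1.03 (adjusted p = 0.637) and 0.61 ± 1.18 (adjusted p = 1). The BDL portion at 0 rested on 9 wells. Markers of other cells moved with the groups. The 5 mesothelial markers summed to 39.1 to 152 RPM in uninjured, 16.8 to 376 RPM in BDL and 246 to 758 RPM in CCl4 portions, highest in the portion with 2028 RPM of Enpp2, and at most 1 of the 5 was at 0 in a CCl4 portion. The 5 HSC markers summed to 1008 to 1658 RPM in uninjured, 378 to 892 RPM in BDL and 518 to 848 RPM in CCl4 portions, with at most 1 at 0 in any. Their part in the values of FB-like wells was not tested.

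Where Enpp2 sat among FB-like wells differed by cluster. A cluster of 167 wells led by the acute-phase genes Saa3 and Hp and the chemokine gene Cxcl5 held 1639 RPM, and 143 of its wells came from CCl4-treated mice. A cluster of 293 wells led by Fmod, F3 and Cilp held 86.5 RPM. The Saa3 cluster was low in Lpar1, at 29.0 RPM against 179 RPM in the Fmod cluster. The clusters were defined on the same wells, so these levels are a description.

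In VSMC-like wells Enpp2 was higher on average after each injury. Uninjured portions ran from 204 RPM through a median of 328 to 513 RPM. BDL portions held 427, 607, 752, 817 and 969 RPM, and CCl4 portions 307, 486, 584 and 1021 RPM. The lowest BDL portion and the 2 lowest CCl4 portions lay within the uninjured range, and the other portions lay above it. The log2 difference was 1.06 ± 0.29 in BDL (adjusted p = 0.153) and 0.78 ± 0.31 in CCl4 (adjusted p = 0.979) by edgeR's quasi-likelihood test. Neither passed with the plate as a block. The 5 HSC markers summed to 557 to 959 RPM in uninjured, 755 to 1365 RPM in BDL and 642 to 932 RPM in CCl4 portions of VSMC-like wells. Their part in these values was not tested. HSC-like wells of the 2 uninjured portions held 14.6 and 14.7 RPM.

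Lpar1, the LPA receptor best known from fibrosis, was highest in FB and was also present in HSC. In 10x it reached 188 CPM (182 to 194) in uninjured FB-like cells and 178 CPM (171 to 184) after 6 weeks of CCl4. HSC-like cells held 49.5 CPM (47.5 to 51.5) in uninjured mice, 49.7 CPM (48.2 to 51.2) at 72 h and 47.8 CPM (45.8 to 49.96) at 6 weeks. The ratios to the uninjured library were 1.00 (0.955 to 1.06) at 72 h and 0.967 (0.911 to 1.03) at 6 weeks, so that the class total stayed level while Acta2, the myofibroblast actin gene, went from 26.0 to 793 CPM at 72 h. VSMC-like cells held 21.1 CPM (17.5 to 25.2) in uninjured mice and 15.3 CPM (13.3 to 17.5) after CCl4. The 6 FB markers, all detected, summed to 1043 and 997 CPM in VSMC-like cells, against 8697 and 9485 CPM in FB-like cells. Their part in the levels of Lpar1 and the other genes in VSMC-like cells was not tested. At least 1 Lpar1 UMI was found in 55.4% of uninjured FB-like cells, or 31.1% when each cell was thinned to 2000 UMIs, at a median depth of 4893.5 UMIs. For VSMC-like cells of the same library, the class with the lowest level, the shares were 4.92% and 2.18% at a median of 3214 UMIs.

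Among VSMC-like clusters Lpar1 was high in a single one. A cluster led by the contractile genes Tnnt2 and Actg2 held 106 CPM in uninjured and 100.99 CPM in CCl4-treated mice. The large cluster led by Nrarp held 4.61 and 2.75 CPM, and that led by Sorbs2 held 4.09 and 5.26 CPM. Among FB-like clusters of the uninjured library, Lpar1 spanned 64.4 CPM, in the cluster led by Wif1, Thy1 and Ptn, to 217 CPM, in the cluster led by Apod, Myoc and Ccl11.

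In Smart-seq2, uninjured FB-like wells again held the most Lpar1 on average, while the mean of CCl4 FB-like portions, 112 RPM, was near that of HSC-like portions, 113 RPM. Uninjured FB-like portions ran from 76.9 RPM through a median of 290 to 373 RPM. The BDL portions held 96.8, 155, 155, 174 and 275 RPM, and the CCl4 portions held 48.7, 84.4, 125 and 188 RPM. Apart from 1 uninjured portion at 76.9 RPM, every uninjured value lay above all CCl4 values. The log2 difference was -1.27 ± 0.43 for CCl4 (adjusted p = 0.253) and -0.71 ± 0.39 for BDL (adjusted p = 0.576) by edgeR's quasi-likelihood test, so neither passed. The HSC-like portions held 90.5 and 135 RPM, and no VSMC-like portion exceeded 17.8 RPM.

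In VSMC-like wells Lpar1 was sparse and uneven. Uninjured portions ran from 0.0794 through a median of 4.16 to 14.9 RPM, the BDL portions from 0.0379 to 0.460 RPM, and the CCl4 portions from 0.0490 to 17.8 RPM. The log2 difference for BDL was -5.10 ± 1.81 (adjusted p = 0.311) by edgeR's quasi-likelihood test. DESeq2's Wald test, tried as an alternative, gave this gene an adjusted p of 0.0131 and Enpp2 an adjusted p of 0.0469. The level was again highest in a contractile cluster, led by Actc1, Npnt and Ankrd1, in which Lpar1 stood at 50.1 RPM in 39 uninjured wells and 0.936 RPM in 18 BDL wells.

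Lpar4, a further LPA receptor, was likewise highest in FB. It stood at 66.0 CPM (62.5 to 69.6) in uninjured FB-like cells and 60.4 CPM (56.7 to 64.2) after CCl4, against 8.90 and 6.24 CPM in VSMC-like cells. In HSC-like cells it went from 3.13 CPM (2.64 to 3.68) to 8.77 CPM (8.15 to 9.43) at 72 h, a ratio of 2.81 (2.34 to 3.38), and was 3.21 CPM at 6 weeks. The unnamed clusters held more, with 24.0 CPM at 72 h and 14.7 CPM at 6 weeks. In FB-like cells the 10x ratio of CCl4 to uninjured was 0.915 (0.843 to 0.994). In Smart-seq2 FB-like wells, uninjured portions ran from 17.5 through a median of 31.0 to 52.6 RPM. CCl4 portions ran from 2.74 to 14.3 RPM. These levels rest on few wells, since a read of Lpar4 was found in 19.2% (13.7 to 25.8) of 177 uninjured wells. Of 220 CCl4 wells, 14.5% (10.2 to 19.9) held one, so the shares overlapped. The log2 difference of -1.75 ± 0.96 for CCl4 did not pass, with an adjusted p of 0.668 by edgeR's quasi-likelihood test. BDL portions ran from 0 to 37.5 RPM and overlapped the uninjured portions.

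Lpar6, a receptor for LPA, was low in all classes of the 10x libraries. It stood at 13.9 and 14.6 CPM in FB-like cells, at 3.14 and 3.61 CPM in VSMC-like cells, and at 8.19, 11.1 and 6.65 CPM in HSC-like cells of the uninjured, 72 h and 6-week libraries. In Smart-seq2 FB-like wells its portions overlapped across conditions, from 18.0 to 58.0 RPM in uninjured, 4.58 to 53.4 RPM in BDL and 14.7 to 40.7 RPM in CCl4 wells. Lpar3 was close to undetected, with 6 UMIs in all 5 libraries, of which 4 were in the uninjured library of protocol 1. No Smart-seq2 portion of FB-like wells exceeded 4.43 RPM for Lpar3, and all VSMC-like portions were at 0.

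S1pr3, the S1P receptor that couples to contraction and migration, was in uninjured mice highest in HSC and next highest in VSMC. In 10x it reached 160 CPM (157 to 164) in uninjured HSC-like cells and was lower after injury, at 85.8 CPM (83.8 to 87.8) at 72 h and 103 CPM (99.5 to 106) at 6 weeks. The ratios were 0.535 (0.518 to 0.553) and 0.640 (0.616 to 0.664), short of the 2-fold that was set for a change. At least 1 S1pr3 UMI was found in 59.6%, 54.8% and 54.1% of HSC-like cells, and in 26.0%, 15.6% and 18.2% of them after thinning to 2000 UMIs. The thinned shares put the uninjured library well above the other two, as the CPM did. The lowest class, uninjured FB-like cells, had shares of 6.64% and 3.14% thinned, and the median depths were 6717.5 UMIs for uninjured HSC-like and 4893.5 UMIs for uninjured FB-like cells.

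The direction for S1pr3 was the other way in the cells of protocol 1. FB-like cells went from 16.4 CPM (14.7 to 18.3) to 38.9 CPM (36.0 to 42.0) after 6 weeks of CCl4, a ratio of 2.37 (2.07 to 2.71). The 5 VSMC markers, all detected in each library, went from 551 to 1393 CPM in the same cells, and their part in this ratio was not tested. Each of the FB-like clusters that held cells of the 2 libraries was higher after CCl4, from 13.3 to 28.5 CPM in the cluster led by Saa3, Sfrp2 and Thbs4, from 9.51 to 23.3 CPM in that led by Ly6c1, Pi16 and Mfap5, from 41.1 to 59.1 CPM in that led by Cxcl13, Penk and Ifi205, and from 14.7 to 29.3 CPM in that led by Ptn, Gas6 and Wif1. VSMC-like cells went from 71.9 CPM (65.1 to 79.2) to 94.2 CPM (89.2 to 99.4), a ratio of 1.31 (1.17 to 1.47).

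In Smart-seq2, S1pr3 in FB-like wells overlapped across the 3 conditions. FB-like portions ran from 63.0 to 288 RPM in uninjured, 34.5 to 297 RPM in BDL and 123 to 231 RPM in CCl4 wells. The log2 difference for CCl4 was 0.02 ± 0.48 (adjusted p = 0.999, edgeR's quasi-likelihood test). VSMC-like wells held more in every portion, from 465 through a median of 597 to 816 RPM in uninjured, 617 to 919 RPM in BDL and 578 to 736 RPM in CCl4 wells, and the ranges of the 3 conditions overlapped. The log2 difference for BDL was 0.45 ± 0.16 (adjusted p = 0.345, edgeR's quasi-likelihood test). The 2 HSC-like portions held 938 and 729 RPM, the latter within the uninjured VSMC-like range. S1pr3 was near absent from the Actc1, Npnt and Ankrd1 cluster, at 1.25 RPM in 75 wells, while the other VSMC-like clusters held 514 to 820 RPM, the reverse of Lpar1.

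S1pr2, a receptor for S1P, was level across the HSC libraries. HSC-like cells held 27.4, 27.8 and 29.0 CPM in the uninjured, 72 h and 6-week libraries, FB-like cells 36.9 and 32.5 CPM, and VSMC-like cells 6.46 and 5.81 CPM. In Smart-seq2, FB-like portions ran from 110 through a median of 127 to 159 RPM in uninjured, 86.4 to 158 RPM in BDL and 45.8 to 127 RPM in CCl4 wells. The log2 difference for CCl4 was -0.63 ± 0.29 (adjusted p = 0.517, edgeR's quasi-likelihood test). HSC-like portions held 78.5 and 100.8 RPM, and no VSMC-like portion exceeded 25.0 RPM.

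S1pr1, the receptor known from endothelium and lymphocytes, was all but absent. Unfiltered 10x tables held 1 UMI in the uninjured library of protocol 2, 37 UMIs at 72 h, 7 UMIs at 6 weeks, and 10 and 16 UMIs in the uninjured and CCl4 libraries of protocol 1. Uninjured HSC-like cells had 0 UMIs, with an exact Poisson upper limit of 0.0795 CPM, and the 72 h HSC-like cells had 0.418 CPM. In FB-like wells, 5 of 6 uninjured portions were at 0 and the last was at 2.87 RPM, while BDL portions ran from 0 to 8.64 RPM and CCl4 portions from 0 to 31.2 RPM. The log2 difference for CCl4, 4.67 ± 1.97 (adjusted p = 0.441, edgeR's quasi-likelihood test), rested on few wells, and the Saa3 cluster held 25.6 RPM.

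**Figure D2:**
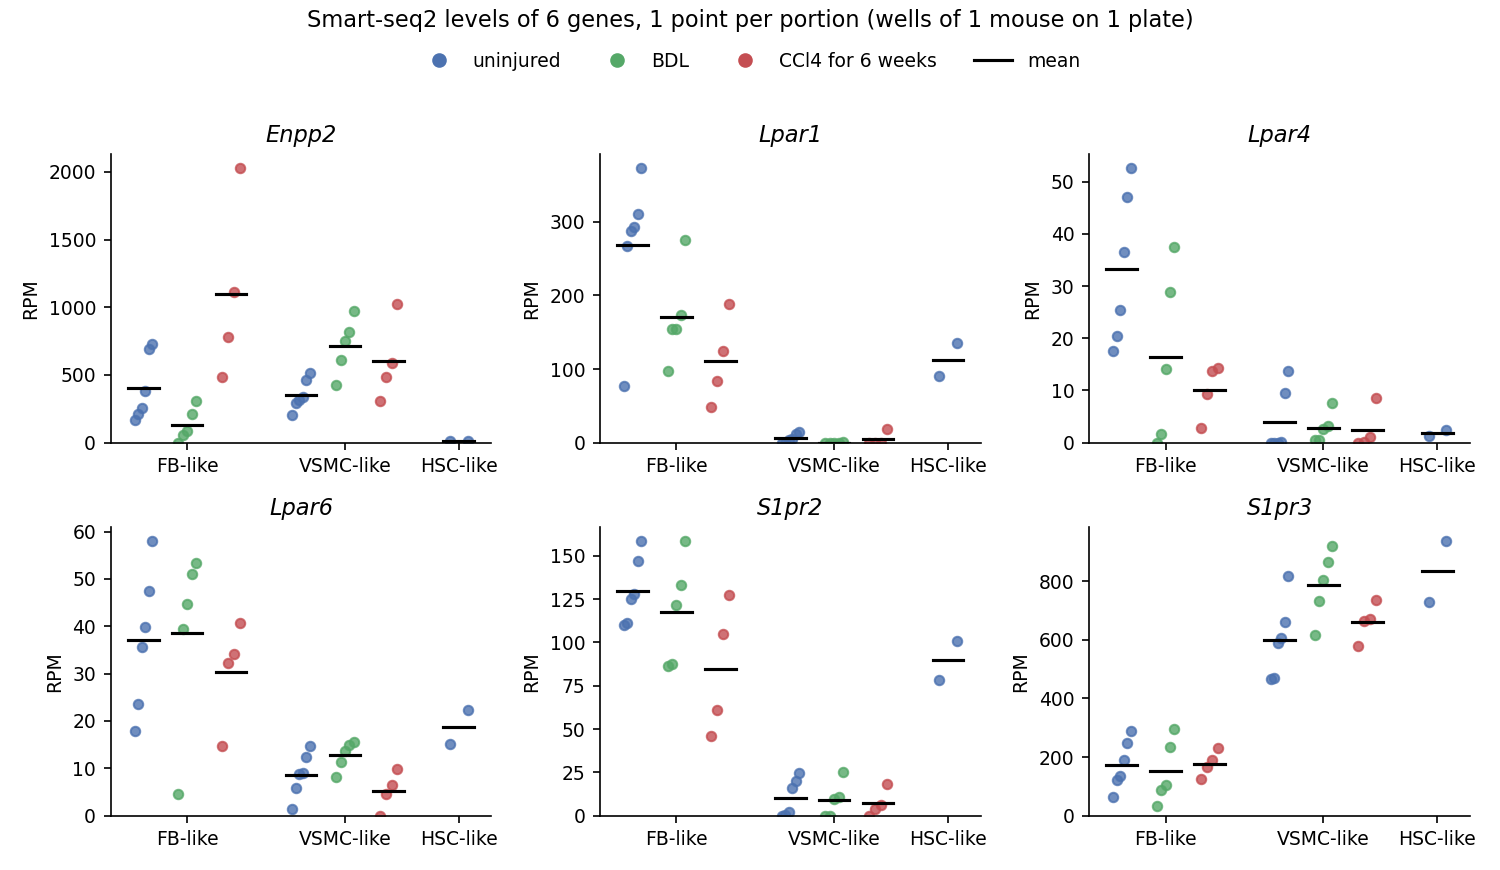
Smart-seq2 level of 6 of the genes in RPM on a linear axis, each point 1 portion, by class and condition, with bars at the mean. Enpp2 in FB-like wells was higher in every CCl4 portion (487 RPM or more) than in every BDL portion (304 RPM or less), as were the uninjured portions of the CCl4 plates (726 and 691 RPM), and S1pr3 was higher in every VSMC-like than in every FB-like portion.

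None of the genes passed in Smart-seq2. For BDL, 91 of 13636 genes tested passed in FB-like wells, which is 0.667% of them, with 69 higher and 22 lower, and 0 of the 7 genes tested here. With plate as a block, 4 genes passed. For CCl4 in FB-like wells, 91 genes (0.667%) passed, 82 higher and 9 lower, or 4 with the plate block, and again 0 of 7. In VSMC-like wells, 42 of 13075 genes (0.321%) passed for BDL, or 1 with the plate block, and 0 (0.0%) for CCl4, with or without it, and 0 of the 6 genes tested here in either. At an unadjusted p under 0.05 there were 0 members for BDL and 3 for CCl4 in FB-like wells (Lpar1, S1pr1 and S1pr2), where 10.6% and 9.22% of all genes tested were. In VSMC-like wells there were 3 for BDL (Enpp2, Lpar1 and S1pr3) and 1 for CCl4 (Enpp2), beside 8.99% and 4.62% of all genes (604 genes for CCl4). DESeq2 called 519 of 14326, 447 of 14769, 368 of 13943 and 104 of 15399 genes in the same order, and 0, 0, 2 and 0 members. The median log2 difference of the members was -0.26 for BDL and -0.31 for CCl4 in FB-like wells and 0.13 and -0.41 in VSMC-like wells, where the medians over all genes lay between -0.0422 and -0.000514. Nothing in the labels says whether mice of the same name on several plates are the same animal, so the p-values measure the spread between portions, and the injuries share their uninjured portions. The injury effect differed between VSMC-like and FB-like wells for 9 of 14922 genes in BDL (0.0603%) and 4 in CCl4 (0.0268%), none of them a member by edgeR's quasi-likelihood test. For Enpp2 the difference of the BDL effects, VSMC-like minus FB-like, was 3.23 ± 1.25 on the log2 scale (adjusted p = 0.705).

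In 10x, where a change was a ratio past 2 with at least 10 CPM in either library, 1 of 6 measurable genes passed in FB-like cells, S1pr3, where 1.96% of all genes did and 1.49% were higher. None passed in VSMC-like cells (2.85% of all genes), in HSC-like cells at 72 h (16.3%) or in HSC-like cells at 6 weeks (3.43%). The median log2 ratio of the measurable members was -0.04 for FB-like and -0.21 for VSMC-like cells, beside -0.01 and 0.05 over all genes, and 0.02 at 72 h and -0.05 at 6 weeks in HSC-like cells, beside -0.22 over all genes in either. A gene under 10 CPM in the uninjured library entered these counts and medians only where it was higher after injury, as Lpar6 did in HSC-like cells at 72 h, while Enpp2, which was lower there, stayed out. The counts and medians are therefore a description. The unnamed clusters stood further from the uninjured HSC-like cells. At 72 h, where 29.8% of all genes were past 2-fold, S1pr3 had a ratio of 0.115 (0.0849 to 0.152) and Lpar4 one of 7.69 (5.64 to 10.4). At 6 weeks, where 13.2% were, the ratios were 0.223 (0.199 to 0.250) and 4.71 (3.69 to 6.01). Lpar4, at 3.13 CPM in uninjured HSC-like cells, reached 10 CPM through the unnamed cells alone, so its passing the threshold is no result, and Enpp2, at 7.52 CPM in uninjured HSC-like cells and at 1.88 and 4.19 CPM in the unnamed cells, could not be counted. Lpar1 was level there, at 45.4 and 52.5 CPM. The 6 FB markers summed to 1525 CPM and the 5 HSC markers to 1176 CPM in the unnamed cells at 72 h, and to 1504 and 6669 CPM in those at 6 weeks, with all 11 detected. Their part in these ratios was not tested.

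**Figure D3:**
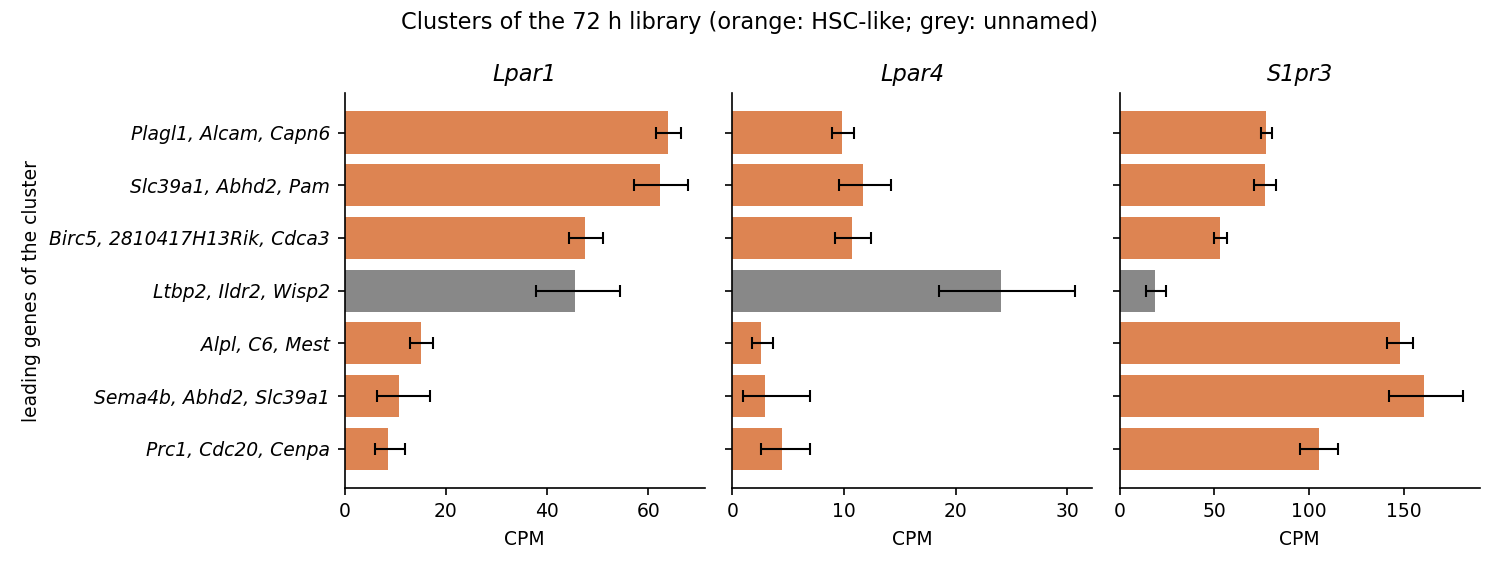
Level of Lpar1, Lpar4 and S1pr3 in each cluster of the 72 h library, in CPM with exact Poisson 95% intervals; the grey bar is the unnamed cluster. Clusters with the most Lpar1 (63.9 CPM in the Plagl1 cluster) held less S1pr3 than those with the least Lpar1 (8.58 CPM in the Prc1 cluster), and the unnamed cluster had the least S1pr3 (18.4 CPM) and the most Lpar4 (24.0 CPM).

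Clusters of the 72 h library spread Lpar1 and S1pr3 in opposite directions. The clusters led by Plagl1 and by Slc39a1 held 63.9 and 62.3 CPM of Lpar1 and 77.4 and 76.6 CPM of S1pr3. Those led by Alpl, Prc1 and Sema4b held 15.1, 8.58 and 10.7 CPM of Lpar1 and 148, 105 and 161 CPM of S1pr3. At 6 weeks the cluster led by Gcgr held 14.8 CPM of Lpar1 and 143 CPM of S1pr3, against 55.3 and 97.3 CPM in that led by Hk2. In the uninjured library, Lpar1 ran from 18.8 CPM in the cluster led by Clec4g, Tmem178 and Mest to 85.4 CPM in that led by Sectm1a, Apoc1 and Ano1, which had the lowest S1pr3, 112 CPM.

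Lpar1 and S1pr3 also differed along a score of the study's portal and central genes, which stands in for place in the lobule. No cell's position was measured. Each HSC-like cell was scored by the study's portal and central gene lists and split into portal (PaHSC-like) and central (CaHSC-like) cells. The study picked those lists on the uninjured cells and counted Lpar1 among its central genes, so the uninjured values are not independent evidence, and Lpar1 was left out of the score used for it. In uninjured mice Lpar1 held 24.6 CPM in PaHSC-like and 69.2 CPM in CaHSC-like cells, a central to portal ratio of 2.81 (2.54 to 3.11). At 72 h the levels were 12.7 and 59.2 CPM, a ratio of 4.65 (4.06 to 5.36), and at 6 weeks 29.1 and 58.1 CPM, a ratio of 2.00 (1.80 to 2.23). The 72 h ratio lay between 2.85 and 3.77 when the split was made on tertiles, on thinned cells, with the uninjured cut or on part of the genes. Median depths were 6843 and 6661 UMIs in uninjured, 9777 and 11984.5 UMIs at 72 h, and 9683 and 10109 UMIs at 6 weeks for portal and central cells in turn. PaHSC-like cells were 43.7%, 23.4% and 36.7% of the HSC-like cells, and 14.4%, 6.47% and 11.7% of cells lay near the cut.

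S1pr3 leaned to the portal side. It held 174 CPM in PaHSC-like and 150 CPM in CaHSC-like cells of uninjured mice, a central to portal ratio of 0.863 (0.824 to 0.903). The ratio was 0.554 (0.527 to 0.583) at 72 h, from 133 and 73.8 CPM, and 0.735 (0.692 to 0.781) at 6 weeks, from 124 and 91.0 CPM. Enpp2 was low but central, at 4.54 against 9.88 CPM in uninjured mice, a ratio of 2.18 (1.71 to 2.79), with ratios of 1.71 (1.07 to 2.84) at 72 h and 1.61 (1.13 to 2.32) at 6 weeks. Ratios were 1.14, 1.28 and 1.21 for S1pr2 and 1.16, 1.46 and 1.08 for Lpar6 in the uninjured, 72 h and 6-week libraries. Lpar4 went from 0.871 in uninjured mice to 2.58 at 72 h and 1.60 at 6 weeks.

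**Figure D4:**
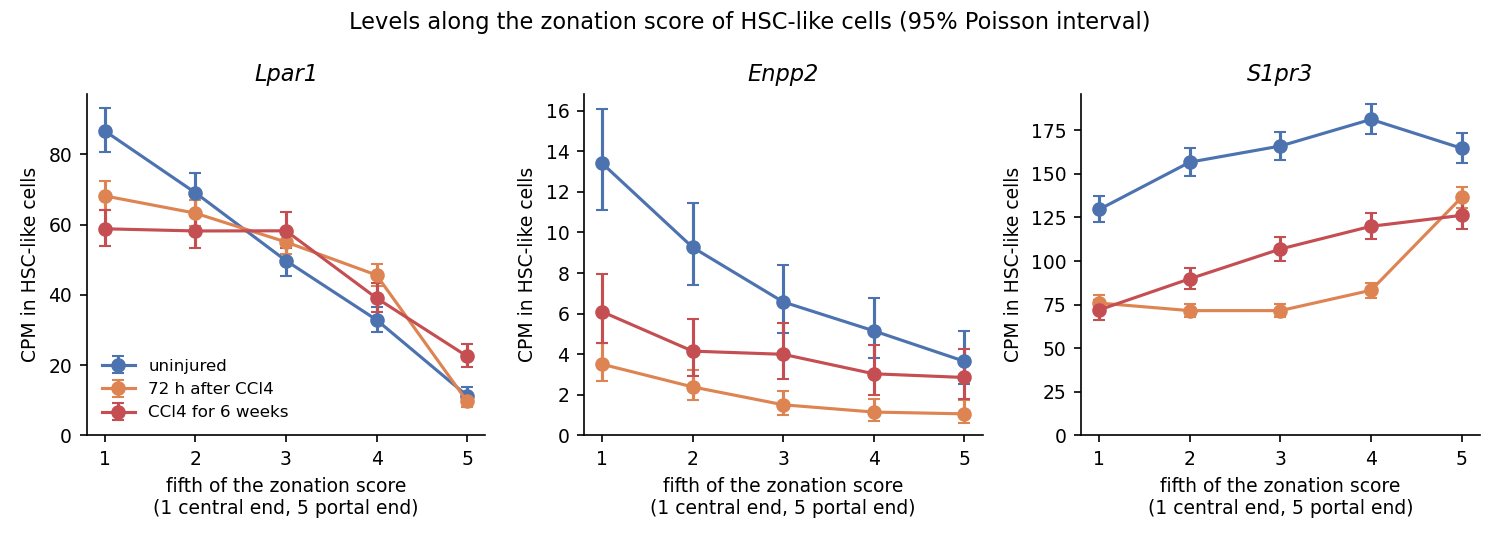
Level of Lpar1, Enpp2 and S1pr3 in 5 equal bins of HSC-like cells ordered from central to portal score in each of the 3 libraries, in CPM with exact Poisson 95% intervals. Lpar1 went from 86.7 to 11.3 CPM across the uninjured bins, while S1pr3 was higher in the most portal than in the most central bin of each library.

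Ordered in 5 bins from central to portal, Lpar1 went from 86.7 to 11.3 CPM in uninjured mice, from 68.2 to 9.66 CPM at 72 h and from 58.8 to 22.5 CPM at 6 weeks. S1pr3 went from 130 to 165 CPM with a peak of 181 CPM in the fourth bin in uninjured mice, from 75.9 to 137 CPM at 72 h and from 72.0 to 126 CPM at 6 weeks. The levels in Smart-seq2 HSC-like wells had the same direction in each portion. Lpar1 held 17.4 RPM in portal against 142 RPM in central wells of the first portion and 41.1 against 169 RPM in the second. S1pr3 held 1002 against 894 RPM and 786 against 709 RPM. Enpp2 held 0.938 against 24.2 RPM and 0.262 against 19.7 RPM, but a read of it was found in 7.94% of portal and 7.69% of central wells of the first portion and in 2.50% and 7.63% of the second, so the levels rest on few wells. With 2 portions no test was made.

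Cells high in the collagen genes Col1a1, Col1a2 and Col3a1 held more Lpar1 and less S1pr3. In the uninjured library, collagen-high cells were 46.3% of HSC-like cells and Lpar1 was 54.1 CPM in them against 45.1 CPM in the rest, a ratio of 1.2 (1.10 to 1.30). At 72 h, 94.7% were collagen-high, with 51.1 against 13.9 CPM, a ratio of 3.69 (2.73 to 5.10), and at 6 weeks 74.7% were, with 51.2 against 35.6 CPM, a ratio of 1.44 (1.28 to 1.62). The ratio for S1pr3 was 0.921, 0.639 and 0.766. The 72 h ratio for Lpar1 was 1.47 when the split was made before the log and 1.93 with a cut for that library alone, and the uninjured ratio for S1pr3 was 0.271 before the log. At 72 h the zones stood apart within each collagen class. Lpar1 was 59.3 CPM in central and 14.2 CPM in portal cells that were collagen-high, and 49.6 and 3.72 CPM in those that were collagen-low. The collagen-low levels rest on 43 Lpar1 UMIs in 374 cells of the zones together. Those cells were shallower, at a median of 8033.5 against 11455 UMIs, and a cell without a UMI of any 1 collagen gene scored 0. The part of depth was not tested. Proliferating cells at 72 h held 40.2 CPM of Lpar1 against 51.6 CPM in the others, and 63.1 CPM of S1pr3 against 90.4 CPM. They were deeper, with a median of 14447 against 11013.5 UMIs, so a lower CPM is not fewer UMIs per cell. A UMI of Lpar1 was found in 38.3% of them against 36.6% of the others, and one of S1pr3 in 54.2% against 54.9%.

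The pathway around the receptors was described with 5 gene lists. None of the other 4 receptors reached 10 CPM in any class. Over the 5 unfiltered libraries Lpar5 had 1 UMI, S1pr5 had 1 UMI and S1pr4 had 0 UMIs, and Lpar2 had 10 to 71 UMIs per library. In Smart-seq2, Lpar2 had no reads in the uninjured FB-like portions and up to 14.8 RPM in BDL portions, with adjusted p-values of 0.107 for BDL and 0.182 for CCl4 by edgeR's quasi-likelihood test. Of the 6 LPA makers and breakers, none was past 2-fold in a named class. Plpp3, a lipid phosphatase that breaks LPA down, stood at 577 and 667 CPM in FB-like cells and at 36.6, 21.2 and 34.2 CPM in the 3 HSC-like libraries, and was singled out after its values were seen.

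Of the 11 S1P makers, breakers and carriers, 7 were measurable in HSC-like cells. At 72 h 1 was higher and 2 were lower, with a list median of -0.53 on the log2 scale beside -0.22 over all genes, and at 6 weeks 1 was higher, with a median of 0.03 beside -0.22. Over all genes, 6.86% were higher and 9.41% lower at 72 h, and 2.19% were higher at 6 weeks. Sphk1, a kinase that makes S1P, went from 4.16 CPM to 15.8 CPM at 72 h, a ratio of 3.79 (3.26 to 4.44), and to 12.4 CPM at 6 weeks, a ratio of 2.98 (2.53 to 3.54), and reached 33.0 and 22.0 CPM in the unnamed clusters. It was measurable through the injured cells alone. Sgpp1, an S1P phosphatase, went from 56.9 to 19.8 CPM at 72 h, and Asah1, a ceramidase that releases sphingosine, from 145 to 51.4 CPM. None of this list was past 2-fold in FB-like or VSMC-like cells, where 6 and 4 of the genes were measurable.

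Of the 13 genes for G proteins and the small GTPase signalling after them, 12 were measurable in each named class and 1 was past 2-fold. It was Gnai1, an inhibitory G protein subunit, which went from 27.4 to 10.5 CPM in HSC-like cells at 72 h, and the list median was -0.37 beside -0.22 over all genes. Of 6 genes that respond to MRTF or YAP, 2 were higher and 2 lower at 72 h and 2 were higher at 6 weeks in HSC-like cells, beside 6.86%, 9.41% and 2.19% of all genes. Acta2 reached 793 and 175 CPM, and Ankrd1, a muscle ankyrin repeat gene, went from 0.259 to 17.0 and 12.5 CPM and was measurable through the injured cells alone. The matricellular gene Ccn2 (Ctgf) went from 103 to 50.2 CPM and Amotl2 from 103 to 50.7 CPM at 72 h. In FB-like cells 1 of 5 measurable genes was higher, beside 1.49% of all genes. It was Acta2, one of the VSMC markers, which went from 244 to 694 CPM with a ratio of 2.84 (2.74 to 2.93). In Smart-seq2, 0 members of the 5 lists passed in FB-like or VSMC-like wells for either injury by edgeR's quasi-likelihood test, and at most 3 genes of a list had an unadjusted p under 0.05 in any of them.

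The unnamed clusters held further departures on these lists. At 72 h, Acta2 stood at 3360 CPM and Ankrd1 at 81.1 CPM, and the S1P exporter gene Spns2 at 10.1 CPM against 0.302 CPM in uninjured HSC-like cells. Sphk1 was 7.94 times (6.10 to 10.3) the uninjured level there, while the ceramidase genes Asah1, at 43.6 CPM, and Acer2, at 3.38 against 33.2 CPM, the phosphatase gene Sgpp1, at 12.4 CPM, and the guanine nucleotide exchange factor gene Arhgef1, at 31.9 against 74.6 CPM, were lower. At 6 weeks, Sphk1 was 5.28 times (4.31 to 6.48) and Acta2 2.44 times (2.21 to 2.70) the uninjured level, and Plpp2, Acer3 and Rhoa had ratios of 0.470, 0.456 and 0.491. Pla1a, a phospholipase gene, stood at 15.6 against 0.539 CPM. Spns2 and Pla1a were below 20 CPM, were measurable through the unnamed cells alone, and were singled out after their values were seen.

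Over 32 sums of Smart-seq2 wells by portion and class, genes among the closest to each member by Pearson's r of the log level were named from 7578 genes. They were the growth factor receptor gene Pdgfra (0.941), the gap junction gene Gja1 (0.935) and Abi3bp (0.935) for Lpar1, and the semaphorin receptor gene Plxnb1 (0.894) and Trp53i11 (0.873) for S1pr3. For Enpp2 they were Ldhb (0.825), Pygl (0.804) and Cltb (0.802), and for S1pr2 Dab2 (0.866), Ncln (0.864) and Spon2 (0.860). Lpar4 came closest to Rap2b (0.814), Penk (0.786) and Aox3 (0.776), and Lpar6 to Itm2a (0.807), Prnp (0.780) and Pla2g15 (0.750). For the sparse S1pr1 they were Mmp14 (0.774), Cxcl5 (0.773) and Ugt1a7c (0.748), and for Lpar3 no r exceeded 0.548, that of Ypel3. The sums share plates, mice and depth, and the values follow the classes, so they are a description of likeness across these wells.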

How the data were processed

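UMI counts of the 10x cells were deposited by the authors as Cell Ranger 2.1.0 gave them on mm10, without normalization. For Smart-seq2, they aligned with STAR and deposited read counts per gene and well, of all wells. Cells under 300 genes or over 30% mitochondrial UMIs were dropped, counts were scaled to 10000 and logged, and cells were clustered (2000 variable genes without the members, 10 components, Leiden at resolution 0.8). Probable doublets were kept, and leaving them out was an alternative. CPM carry exact Poisson and shares exact binomial 95% intervals, and ratios past 2 with 10 CPM or more count as changes. Smart-seq2 portions of at least 5 wells were tested with edgeR 4.0.16's quasi-likelihood test, with TMM, filterByExpr and an adjusted p of 0.05, and DESeq2 1.42.0 as an alternative. On simulated counts for BDL in FB-like wells, the test found 57% of 200 genes changed 4-fold, with 9 false calls among 13636 genes. Duplicated symbols (492) were summed. Deviations from group means correlated between portions of a plate with a median of 0.0425 over 9 pairs in FB-like wells. Plate is a shared batch, so its block is given beside the counts. All members were named, and list genes at 20 CPM or more that differed 2-fold or passed in Smart-seq2. Members and lists were chosen with earlier results of these data known. Some genes that these rules name are not reported here.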

Additional observations from a re-analysis of the deposited data

Results flagged for a closer look

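In 8 of 41 groups of 4 to 6 Smart-seq2 portions, a single portion lay far from the others by Dixon's criterion. Chance meets it in about 1 of 20 groups of normally distributed values. That rate does not hold for RPM with many portions at 0, so no excess can be read from the count. For Lpar1 in uninjured FB-like wells, the plate 2 portion of 15 wells held 76.9 RPM while the other 5 held 267 to 373 RPM. For Lpar6 in BDL FB-like wells, the plate 2 portion of mouse 1 held 4.58 RPM while the other 4 held 39.4 to 53.4 RPM. In CCl4 VSMC-like wells, the plate 3 portion of mouse 1 held 17.8 RPM of Lpar1, against 0.0490 to 0.127 RPM in the others, and the plate 3 portion of mouse 2 held 8.54 RPM of Lpar4, against 0 to 1.00 RPM. The other 4 were single portions with reads beside portions at 0, all in FB-like wells, a pattern that always meets the criterion. They were 4.43 RPM of Lpar3 in a BDL portion, 2.61 RPM of Lpar3 and 2.87 RPM of S1pr1 in uninjured portions, and 1.76 RPM of Lpar3 in a CCl4 portion.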

How the results depend on the processing

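The number of genes called in Smart-seq2 depended on the setting. For BDL in FB-like wells, 91 genes became 519 with DESeq2, 4 with the plate as a block, 55 with portions of at least 10 wells, 31 with classes from resolution 1.2, 40 without the plate of uninjured mice alone, and 1 with portions of the same layout name summed, an alternative chosen after seeing the data. For CCl4 there, 91 became 447, 4 with the block, 0 at resolution 1.2 and 11 when summed. For BDL in VSMC-like wells, 42 became 368, 1 with the block and 0 when summed, and DESeq2 called 2 members. For CCl4 in VSMC-like wells, DESeq2 called 104. The block changed no other call. Leaving out portions in turn gave 29 to 94 and 35 to 99 genes in FB-like and 10 to 52 and 0 to 1 genes in VSMC-like wells, for BDL and CCl4 in turn, and 6 to 12 and 2 to 7 genes for the difference between classes. For BDL in FB-like wells, the count moved over 1.5 times without uninjured portions of plate 1 (41), 2 (38), 3 (29), 5 (38) and 6 (40), BDL portions of plate 1 mouse 2 (38), plate 2 mouse 1 (38) and mouse 2 (55) and plate 4 (44), and CCl4 portions of plate 3 mouse 1 (32) and plate 5 mouse 2 (57). For CCl4 there it did so without the uninjured portion of plate 1 (55) and CCl4 portions of plate 3 mouse 1 (55) and plate 5 mouse 1 (35) and mouse 2 (51). For BDL in VSMC-like wells it did so without uninjured portions of plate 1 (21), 2 (25) and 3 (22) and BDL portions of plate 1 mouse 1 (23) and mouse 2 (13), plate 2 mouse 1 (10) and mouse 2 (13) and plate 4 (27). The 1 gene for CCl4 in VSMC-like wells came without plate 3 mouse 2, and the difference between classes in CCl4 gave 7 without the uninjured portion of plate 4 and 2 without that of plate 5. No member was called with any portion left out, and the cause of the shifts was not tested.

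In 10x, 1 member passed 2-fold in protocol 1 cells of all classes pooled, in place of VSMC-like cells alone. The central to portal ratio of Lpar1 was 3.88 on tertiles and 3.18 thinned in uninjured cells, 3.08 with the uninjured cut, 2.85 on tertiles, 3.77 with the genes tied to Ngfr alone and 2.87 thinned at 72 h, and 1.52 with the uninjured cut and 2.40 thinned at 6 weeks. That of S1pr3 was 0.810 on tertiles and 0.918 with the Ngfr genes alone in uninjured cells, 0.613 with the uninjured cut, 0.645 on tertiles, 0.524 without doublets and 0.627 thinned at 72 h, and 0.672 with the uninjured cut, 0.617 on tertiles and 0.6249 with the unnamed cells counted in at 6 weeks. With collagen split before the log, the ratio of Lpar1 was 1.32, 1.47 and 1.13 in uninjured, 72 h and 6-week cells, and 1.93 at 72 h with a cut for that library. That of S1pr3 was 0.271 in uninjured and 0.636 at 6 weeks before the log, and 0.671 at 6 weeks with the unnamed cells counted in. No direction reversed among the values called. For members that did not pass in Smart-seq2, some log2 differences changed sign, with a shift beyond their SE, in 1 setting each. They were Enpp2 and S1pr1 for CCl4 in FB-like wells, and Lpar4 for BDL and S1pr2 for CCl4 in VSMC-like wells. At resolution 1.2 the Smart-seq2 cluster led by Saa3, of 156 wells, was unnamed and out of the tests. With 1 library per 10x condition, depth limits single shares, and Lpar3 and S1pr1 were too sparse to compare.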
